A study of Homo sapiens with 23 samples.

Results

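Precision run-on sequencing (PRO-seq), which maps engaged RNA polymerases and so reads transcription as it happens, was performed in T47D, a human breast cancer line of luminal type that carries the estrogen receptor, and the genes described here were 38 genes induced by low oxygen. They were listed by name as targets of the hypoxia-inducible factors (HIF), by a rule that uses no measured value but was set with earlier results of these data known, and were found by matching the Ensembl identifiers of the table to GENCODE v44 symbols. All 38 were among the 60605 genes of the table. Of these, 10 encode glycolytic enzymes (HK1, HK2, GPI, ALDOA, ALDOC, TPI1, PGK1, PGAM1, ENO1 and LDHA) and the other 28 encode proteins with other roles. All libraries came from 1 clone, Clone 28, in which a degron had been placed on the endogenous transcription factor TRPS1, so the control cells carried the tag as well. Control cells received 0.1% v/v DMSO for 24 h (n = 4). Treated cells received 50 nM dTAG-13 plus 50 nM dTAG-V-1 (here dTAG) for 0.5, 1, 2 or 4 h (n = 4 each) or for 24 h (n = 3, replicates 2, 3 and 4). Cells were kept in RPMI 1640 medium with fetal bovine serum and insulin, and the labels name no low-oxygen treatment. No group received the ligands without the tag, so ligand exposure and loss of TRPS1 cannot be told apart in any comparison with DMSO.

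HIF is a pair of proteins, an oxygen-labile alpha subunit and the stable partner ARNT. In oxygen, prolyl hydroxylases of the EGLN family mark the alpha subunit, the VHL protein binds the mark, and the ubiquitin ligase that holds VHL sends it to the proteasome. When oxygen is short the alpha subunit persists, binds a short core sequence near its targets and raises glucose uptake, glycolysis, blood vessel signals and mitophagy, and it also raises some of its own hydroxylases. dTAG-13 recruits the CRBN ligase to a tagged protein, whereas dTAG-V-1 recruits VHL, the ligase subunit that also binds hydroxylated HIF.

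The core that HIF binds, searched as ACGTG or GCGTG on both strands, stood in the 250 bases before the RefSeq start (GRCh38.p14) of 24 of the 32 genes with an entry (75%), against 43.1% of 27305 promoters. The palindrome CACGTG holds the core once on each strand and was counted as 2 matches. Among the glycolytic enzymes 7 of 10 held it (70%), and among the other targets 17 of 22 (77.3%). A GATA motif (AGATAA on either strand, with T also accepted as its first base and G as its last), the kind of site bound by the family to which TRPS1 belongs, stood in 4 of the 32 (12.5%), against 22.9% of all promoters. Such a match is a description of the letters and not a measured site. The windows below, printed 5′ to 3′ with the HIF core in capitals, belong to 5 genes whose transcription passed a test between groups and to LDHA and PGK1, which are standard HIF targets and are described below as genes that did not.
DDIT4, chr10:72273674-72273923, plus strand: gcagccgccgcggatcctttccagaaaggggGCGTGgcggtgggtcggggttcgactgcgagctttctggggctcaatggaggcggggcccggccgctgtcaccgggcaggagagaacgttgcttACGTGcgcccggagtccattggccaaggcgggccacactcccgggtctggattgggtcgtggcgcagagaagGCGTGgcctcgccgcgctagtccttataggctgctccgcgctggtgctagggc
HK1, chr10:69269750-69269999, plus strand: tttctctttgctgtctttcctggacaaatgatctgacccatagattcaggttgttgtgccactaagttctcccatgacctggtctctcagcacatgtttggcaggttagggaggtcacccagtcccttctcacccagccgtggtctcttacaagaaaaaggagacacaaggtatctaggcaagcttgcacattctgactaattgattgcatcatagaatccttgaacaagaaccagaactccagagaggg
PFKFB4, chr3:48556804-48557053, minus strand: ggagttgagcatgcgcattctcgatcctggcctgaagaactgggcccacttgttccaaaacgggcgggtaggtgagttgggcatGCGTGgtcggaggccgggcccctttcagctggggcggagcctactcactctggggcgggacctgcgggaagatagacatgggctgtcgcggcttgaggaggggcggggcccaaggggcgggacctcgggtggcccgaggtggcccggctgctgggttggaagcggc
P4HA1, chr10:73096867-73097116, minus strand: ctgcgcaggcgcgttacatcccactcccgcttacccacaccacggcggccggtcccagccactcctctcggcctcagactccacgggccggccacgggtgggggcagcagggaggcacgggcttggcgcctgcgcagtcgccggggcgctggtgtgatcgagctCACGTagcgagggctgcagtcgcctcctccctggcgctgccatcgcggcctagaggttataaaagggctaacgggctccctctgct
KDM3A, chr2:86441121-86441370, plus strand: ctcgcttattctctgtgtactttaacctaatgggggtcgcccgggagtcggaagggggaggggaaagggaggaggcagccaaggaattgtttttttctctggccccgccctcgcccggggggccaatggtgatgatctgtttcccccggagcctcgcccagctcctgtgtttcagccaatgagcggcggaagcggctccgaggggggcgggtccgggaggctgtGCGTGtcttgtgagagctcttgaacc
LDHA, chr11:18394313-18394562, plus strand: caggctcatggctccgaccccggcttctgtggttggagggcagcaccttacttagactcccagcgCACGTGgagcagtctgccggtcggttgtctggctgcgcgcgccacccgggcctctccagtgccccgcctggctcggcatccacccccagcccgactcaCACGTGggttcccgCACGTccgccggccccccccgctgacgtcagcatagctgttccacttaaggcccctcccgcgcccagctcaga
PGK1, chrX:78103998-78104247, plus strand: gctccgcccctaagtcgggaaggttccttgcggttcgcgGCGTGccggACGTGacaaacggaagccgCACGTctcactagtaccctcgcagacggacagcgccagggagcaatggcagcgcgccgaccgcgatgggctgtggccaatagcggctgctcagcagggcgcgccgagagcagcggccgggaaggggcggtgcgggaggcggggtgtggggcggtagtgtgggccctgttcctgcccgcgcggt
DDIT4 had 3 matches, at 219, 125 and 53 bases before the start. LDHA had 5 and PGK1 had 3, while P4HA1, PFKFB4 and KDM3A each had 1. HK1 had none in this window. For each gene 1 RefSeq start was used, and whether these cells transcribe from it was not tested. PFKFB4 was the single one of these 7 with a GATA match.

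Total counts per library ran from 4408544 to 17571616 (median 9768427), and the genes described here took 0.193% to 0.235% of each library. Luminal markers were transcribed in every library (KRT8, KRT18, KRT19, EPCAM, ESR1 and PGR), with PGR at a median of 24.0 CPM (counts scaled to library size) per kilobase of gene. Of the basal markers KRT5 was at 0 in 11 libraries and KRT14 in 6, whereas TP63 had a median of 26.2 CPM over its long gene (0.0987 CPM per kilobase). Of the fibroblast, leukocyte and endothelial markers COL1A2, DCN, CD3E and CDH5 had medians of at most 0.36 CPM, PECAM1 and PTPRC of 1.35 and 3.18 CPM, and COL1A1 and CD68 of 12.5 and 11.4 CPM; the last 4 were at 0 in no library. The 4 h library of replicate 1 stood apart, with the lowest total and the highest share of counts in mitochondrial genes (6.5%, against 1.73% to 4.24% in the others), so the genes named as called at 4 h are also given without replicate 1. The ligands act on the TRPS1 protein, so counts of its gene do not check the labels. Replicate numbers mark harvests at different times of 1 day, and libraries of 1 number were collected together. Calls made only by a fit with the replicate number as a term (below, the replicate block) are named as such. The replicates came from 1 clone within a day, so p-values measure the spread between these harvests.

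In DMSO the genes spanned a wide range of transcription, given here as CPM per kilobase of gene span. Reads near the start were not set apart from the rest of the span, and the part of gene length in this order was not tested. ALDOA stood first at 10.2 ± 1.16 (SD, n = 4), followed by DDIT4 (9.38 ± 0.741), ADM (9.31 ± 1.03) and HILPDA (9.22 ± 0.671). None of these 4 differed from the next among them beyond their spread, whereas all HILPDA values lay above those of ENO1, which came next at 6.92 ± 0.371. LDHA followed at 4.61 ± 0.428 and PFKFB3 at 4.39 ± 0.159, which also did not differ beyond their spread. The first 4 genes have short spans, of 6.3 kb (ALDOA), 2.1 kb (DDIT4), 2.3 kb (ADM) and 2.6 kb (HILPDA). Same-strand genes of the table cover 99.3% of ALDOA and 100% of HILPDA, with 819 and 1076 mean counts against 646 and 223. The places of ALDOA and HILPDA may therefore include reads of those genes. At the low end of the genes that passed the low-count filter, HK2 (0.242 ± 0.0307), P4HA2 (0.232 ± 0.00924) and EGLN3 (0.223 ± 0.00852) could not be ordered against each other as counted. Most counts of EGLN3 (736 of a mean of 1326) belong to SPTSSA, a gene inside its span. Without them EGLN3 was at 0.0988 ± 0.00447 over the same span, below HK2 and P4HA2 by this measure. The spans of EGLN3 (538.5 kb) and P4HA2 (105.2 kb) start well upstream of their RefSeq starts, which lie beside chr14:33951075 and chr5:132227092. Their values per kilobase and places in this order therefore depend on the gene model, and a shorter span was not tested. Per gene rather than per kilobase, PFKFB3 had the highest value of the 38, at 481 ± 17.5 CPM.

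The 3 remaining genes were close to silent and did not pass the low-count filter. CA9, the membrane carbonic anhydrase that is often used as a marker of hypoxia, had 0, 1, 0 and 1 counts in the 4 DMSO libraries, 1, 0, 2 and 2 at 0.5 h, 0, 1, 2 and 2 at 1 h, then 1, 2, 1 and 0 at 2 h, 0, 1, 2 and 0 at 4 h, and 1, 0 and 1 at 24 h. No library exceeded 2 counts of CA9, which is under the 3 counts that a count of 0 allows, so no change was detectable at this depth. SLC2A3, a high-affinity glucose transporter, had 0 to 6 counts a library. LOX, which crosslinks collagen, had 1 to 13, with 81.3% of its span covered by the antisense strand of SRFBP1. The remaining 35 genes entered the tests, which were fitted on all 26057 genes that passed the filter.

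Few genes of the set were called against DMSO at single times. In edgeR's quasi-likelihood test with Benjamini-Hochberg adjustment over all genes, called here at an adjusted p-value (FDR) under 0.1, 0 of 35 genes were called at 0.5 h against DMSO, where 0.476% of all genes were called; 5 had an unadjusted p under 0.05, and DESeq2 called 1 (HK1). At 1 h 1 of 35 was called (all genes 1.25%), and it was KDM3A. At 2 h the count was 0 (all genes 0.733%), with 2 at an unadjusted p under 0.05, and at 4 h it was also 0 (all genes 0.833%), with 3 at an unadjusted p under 0.05; DESeq2 called 0 at both times. At 24 h 1 of 35 was called (all genes 0.863%), and it was DDIT4. Over all time points together, 2 of 35 were called (all genes 2.71%), DDIT4 and HK1. With 1 gene being 2.86% of 35, shares of this size cannot be set apart from the background.

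The replicate block raised the counts for these genes and for the table alike. With it, 3 genes were called at 0.5 h (all genes 2.48%), 3 at 1 h (3.25%), then 1 at 2 h (2.43%), 2 at 4 h (2.49%), 2 at 24 h (2.65%) and 9 over all time points (9.01%). Among the 14842 genes with a mean count at least that of the lowest gene of the set, 14.3% were called over all time points. The 9 were DDIT4, HK1, PFKFB3, P4HA2, P4HA1, PFKFB4, HILPDA, GPI and KDM3A. In both fits no change against DMSO in these 35 genes reached 0.5 on the log2 scale, as the map of fold changes by gene and time shows.

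**Figure D1:**
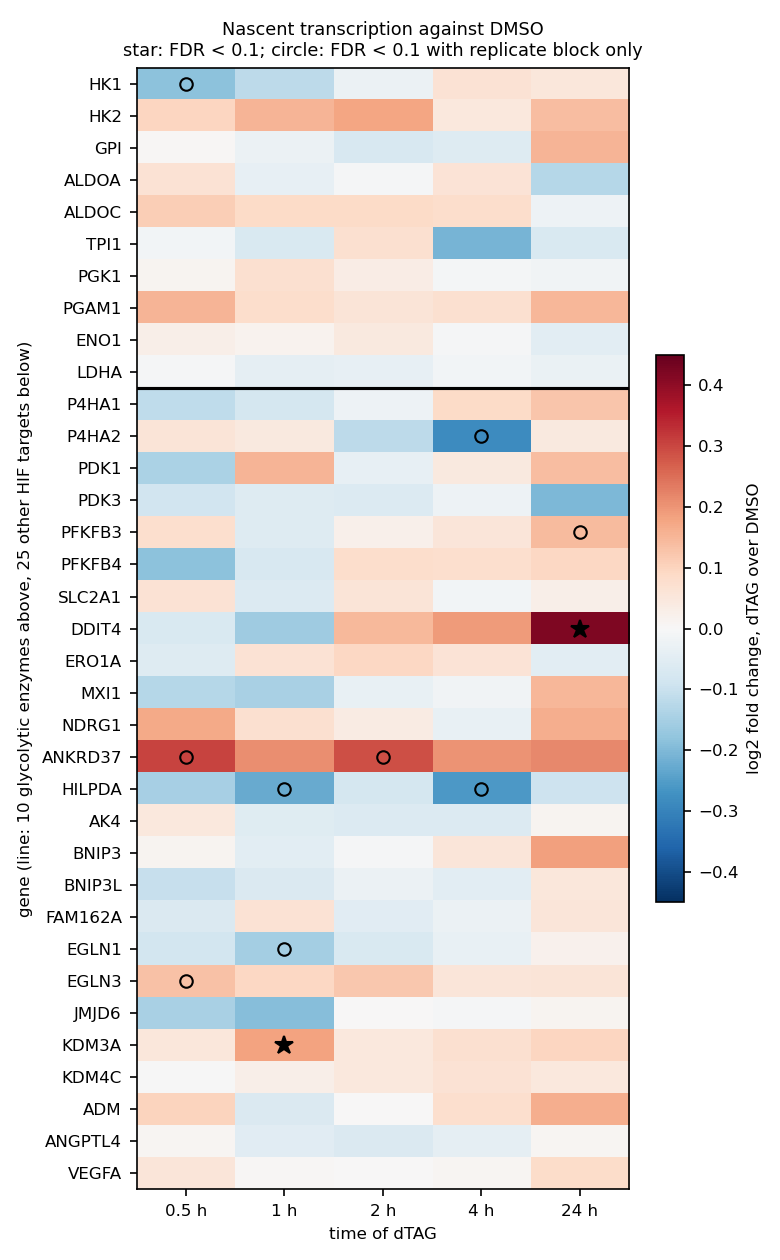
Log2 fold change of nascent transcription against DMSO (colour) for the 35 genes that passed the low-count filter (rows) at each time of dTAG (columns), from the fit without the replicate block; a star marks FDR under 0.1 in that fit and a circle FDR under 0.1 with the replicate block only. Stars stand at KDM3A at 1 h and DDIT4 at 24 h, ANKRD37 was above 0 at every time and HILPDA below 0 at every time.

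By group, the median log2 fold change of the 10 glycolytic enzymes was 0.02 at 0.5 h, -0.01 at 1 h, then 0.04 at 2 h, 0.02 at 4 h and -0.02 at 24 h (0.01 at 24 h with the replicate block). For the 25 other targets tested it was -0.00 at 0.5 h, -0.06 at 1 h, then 0.00 at 2 h, 0.01 at 4 h and 0.06 at 24 h, beside -0.00 to 0.01 for all genes at these times. At 24 h 22 of these 25 had a positive estimate (88%), against 50.9% of all genes and 4 of the 10 glycolytic enzymes; with the replicate block the counts were 21 of 25 and 5 of 10. The summed CPM of the other targets was 1550.5 ± 21.6 (SD, n = 4; 1519.9 to 1568.8) in DMSO and 1644 ± 18.1 (SD, n = 3; 1623.8 to 1658.6) at 24 h. These ranges did not overlap, and PFKFB3 makes up 481 and 531 of the CPM in the respective sums. The summed glycolytic enzymes, at 558 ± 27.2 in DMSO and 559 ± 29.1 at 24 h, overlapped. For the whole set the sums were 2063.7 to 2138.3 CPM in DMSO and 2169.4 to 2251.1 at 24 h, without overlap. At 4 h without replicate 1 the medians were -0.04 for the glycolytic enzymes and 0.00 for the other targets. The members of a group are not replicates, and no test was made on these medians, counts or sums.

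Among the glycolytic enzymes, the largest change at 0.5 h of dTAG was that of HK1, the hexokinase that phosphorylates glucose in most tissues. Its CPM in DMSO were 138, 139, 127 and 128 in replicates 1 to 4, and at 0.5 h they were 125, 113, 112 and 117. All 4 libraries at 0.5 h lay below all 4 in DMSO. At 1 h the values were 130.2, 125, 116 and 118, at 2 h 126, 137, 128 and 130.5, and at 4 h 149.8, 140.03, 132 and 135. At 24 h replicates 2, 3 and 4 had 145, 128 and 140.5. The fall at 0.5 h was 0.18 on the log2 scale (log2 fold change -0.18 ± 0.053, SE), lower in 4 of 4 pairs, and was not called by edgeR (FDR 0.198) unless the replicate block was added (-0.18 ± 0.038, FDR 0.0138). Over all time points together HK1 was called in both fits (FDR 0.0454 and 0.000592). From 1 h on its fold changes against DMSO were -0.12 to 0.07 and were not called.

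HK2, the inducible hexokinase and a standard HIF target, was transcribed at a lower level. Its CPM were 11.7, 15.5, 15.5 and 14.5 in DMSO, 14.8, 18.3, 13.0 and 15.4 at 0.5 h, 14.9, 19.0, 14.1 and 15.7 at 1 h, then 16.5, 16.8, 15.5 and 16.1 at 2 h, 13.3, 14.9, 13.6 and 17.2 at 4 h, and 15.5, 15.0 and 16.9 at 24 h. The DMSO library of replicate 1 was the lowest of the 23. The groups overlapped except at 2 h, and the 95% intervals over the 5 time points ran from -0.19 to 0.41 on the log2 scale.

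PGK1, which makes the first ATP of glycolysis, was among the steadiest genes as counted. Its CPM were 72.0, 66.1, 70.2 and 66.6 in DMSO, 74.1, 66.1, 70.6 and 66.7 at 0.5 h, 71.2, 73.9, 73.1 and 71.1 at 1 h, then 70.7, 70.4, 68.8 and 71.3 at 2 h, 69.6, 63.5, 70.8 and 69.2 at 4 h, and 67.6, 68.2 and 68.4 at 24 h. All 23 libraries lay within 63.5 to 74.1 CPM, with group means of 68.0 to 72.3. Its fold changes as counted were -0.01 to 0.07 (log2) with 95% intervals from -0.11 to 0.16. The span counted for PGK1 also holds ATP7A on the same strand (225 of 722 mean counts), so these intervals do not bound PGK1 alone. With the ATP7A counts subtracted and without the block, its fold changes were -0.07 (at 4 h) to 0.01, with SEs of 0.054 to 0.058. The subtracted values do not bound PGK1 alone either. The span starts at chrX:77910739, well upstream of the RefSeq start beside chrX:78104247. C4orf46P2, a same-strand pseudogene over 25.4% of the span (80 mean counts), was not subtracted separately. PGK1 remained uncalled at every time.

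LDHA, which turns pyruvate into lactate, showed no call against DMSO at any time. Its CPM were 66.9, 70.9, 58.9 and 59.2 in DMSO, 72.0, 66.1, 59.4 and 57.5 at 0.5 h, 67.3, 66.8, 56.8 and 58.0 at 1 h, then 69.8, 65.7, 55.7 and 58.3 at 2 h, 75.2, 66.2, 57.0 and 56.6 at 4 h, and 70.4, 60.6 and 57.0 at 24 h. Within every group the libraries of replicates 1 and 2 were above those of replicates 3 and 4, a split taken up below. The 95% intervals against DMSO ran from -0.26 to 0.20 (log2) without the block and from -0.13 to 0.11 with it.

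The other 6 glycolytic enzymes changed by -0.21 to 0.15 (log2) against DMSO, and none was called at a single time point by edgeR in either fit. GPI, which converts glucose 6-phosphate to fructose 6-phosphate, had 37.1 ± 3.45 CPM in DMSO and 41.2 ± 2.7 at 24 h. It was called over all time points with the replicate block (FDR 0.0735) and not without it. Another protein-coding gene of the same strand overlaps 14.2% of the GPI span, with 160 mean counts against 380 for GPI. Its reads were not subtracted in any comparison of GPI. PGAM1, the phosphoglycerate mutase, was higher than the DMSO library of the same number in 16 of 19 pairs, with fold changes of 0.06 to 0.15 that were not called. TPI1, ENO1, ALDOA and ALDOC had values in DMSO that overlapped those at every time of dTAG. ALDOA and ALDOC lie inside longer same-strand genes of the table, so their reads are counted under another name as well.

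Of the genes for glucose uptake and the control of the pathway, SLC2A1, the main glucose transporter of epithelial tumours, overlapped DMSO throughout. Its CPM were 29.5, 31.3, 28.7 and 30.3 in DMSO, 30.4, 33.1, 30.4 and 31.1 at 0.5 h, 27.8, 28.4, 28.1 and 30.5 at 1 h, then 31.6, 32.7, 31.1 and 29.1 at 2 h, 29.5, 30.5, 29.4 and 29.3 at 4 h, and 27.6, 31.9 and 31.8 at 24 h. The libraries spanned 27.6 to 33.1 CPM, and the 95% intervals ran from -0.17 to 0.17 on the log2 scale. PDK1, a kinase that inhibits pyruvate dehydrogenase and so keeps pyruvate from becoming acetyl-CoA, had 18.4, 18.7, 20.8 and 16.6 CPM in DMSO, 15.9, 15.1, 17.6 and 18.7 at 0.5 h, 21.2, 16.8, 20.8 and 24.4 at 1 h, then 18.1, 17.8, 18.5 and 18.3 at 2 h, 18.3, 18.0, 18.6 and 21.7 at 4 h, and 22.6, 18.7 and 20.4 at 24 h. The groups of PDK1 overlapped DMSO at every time, and its wider intervals ran from -0.35 to 0.36. PDK3, another such kinase, was at 37.5 ± 3.87 CPM in DMSO and 32.5 ± 1.3 at 24 h, the largest fall of the set at 24 h, and was not called (-0.20 ± 0.10, FDR 0.717).

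PFKFB3 and PFKFB4 make and break fructose 2,6-bisphosphate, the activator of phosphofructokinase. PFKFB3 had 459 to 498 CPM in DMSO and 525 to 540 at 24 h, with no overlap between the groups. Its change at 24 h was 0.14 ± 0.045 (log2, SE), higher in 3 of 3 pairs, and not called (edgeR FDR 0.271), whereas with the replicate block it was 0.16 ± 0.034 and called (FDR 0.0101). PFKFB4 had 27.3, 30.9, 29.6 and 28.1 CPM in DMSO, 21.8, 27.4, 26.3 and 25.9 at 0.5 h, 27.0, 29.0, 26.8 and 27.5 at 1 h, then 30.1, 32.6, 29.3 and 30.5 at 2 h, 31.9, 32.8, 30.4 and 27.2 at 4 h, and 32.5, 28.9 and 31.4 at 24 h. Every library of PFKFB4 at 0.5 h lay below its DMSO partner, though the groups overlapped, and this change was not called in either fit (-0.19 ± 0.068, FDR 0.417; with the block -0.18 ± 0.056, FDR 0.131).

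**Figure D2:**
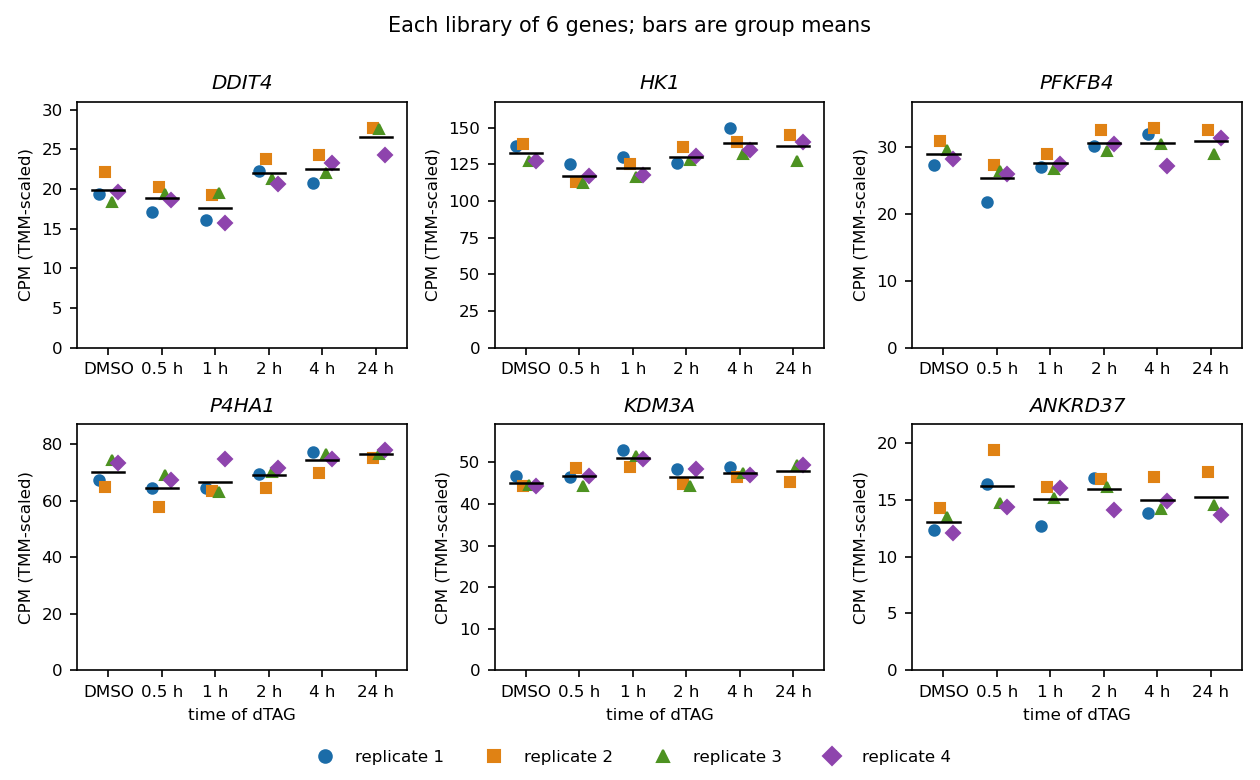
CPM (TMM-scaled, from 0) of 6 genes in each of the 23 libraries by group; symbols and colours give the replicate number and bars the group mean. DDIT4 is highest at 24 h (24.3 to 27.7 CPM), HK1 lowest at 0.5 h (112 to 125), KDM3A highest at 1 h (48.9 to 52.9), and ANKRD37 lowest in DMSO (12.1 to 14.3).

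The dioxygenases of the set use oxygen directly. EGLN1 and EGLN3 hydroxylate HIF-alpha, KDM3A and KDM4C remove methyl groups from histone lysines, and JMJD6 hydroxylates lysines. KDM3A, which acts on methylated lysine 9 of histone H3, had 46.8, 44.4, 44.7 and 44.2 CPM in DMSO and 52.9, 48.9, 51.5 and 50.8 at 1 h. The groups did not overlap. The rise was 0.18 ± 0.043 (log2, SE), higher in 4 of 4 pairs, with an edgeR FDR of 0.0684 (0.0308 with the block). Without the block the call did not survive leaving out any of the 4 replicates in turn (FDR 0.145 to 0.473, estimates 0.17 to 0.19). With the block and a replicate left out, it was kept only without replicate 2 (0.20, FDR 0.0808). The call was kept in 3 of 14 alternative fits, and DESeq2 did not make it (FDR 0.199). At the other times its means were 46.6 to 48.1 CPM and were not called.

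EGLN3, the hydroxylase strongly induced by HIF in many cells, had 114.9, 123, 125 and 118 CPM in DMSO, 134, 138, 128 and 127 at 0.5 h, 129, 126, 133 and 125 at 1 h, then 128, 132, 135 and 129 at 2 h, 112.9, 130.1, 128 and 128 at 4 h, and 127, 123 and 126 at 24 h. It was above its DMSO partner in 17 of 19 pairs, by 0.06 to 0.13 on the log2 scale, and uncalled without the block (lowest FDR 0.318). With the block the 0.5 h difference was called at the edge of the threshold (0.13 ± 0.038, FDR 0.0996). The span counted for EGLN3 holds SPTSSA on the same strand, which gave 736 of its 1326 mean counts, and after these were subtracted the blocked value was 0.11 with an FDR of 0.351. Without the block the subtracted fold changes were 0.11 at 0.5 h, 0.03 at 1 h, then 0.12 at 2 h, 0.03 at 4 h and 0.16 at 24 h, none of them called, against 0.13, 0.09, 0.12, 0.06 and 0.06 as counted. EGLN1 was 67.7 ± 2.91 CPM in DMSO and 61.0 ± 3.5 at 1 h, lower in 4 of 4 pairs (-0.15 without the block, FDR 0.325; -0.16 ± 0.046 with it, FDR 0.0908). Almost all of the EGLN1 span (99.9%) also lies in another protein-coding gene model of the same strand. JMJD6 changed by -0.19 to 0.01 and KDM4C by -0.00 to 0.07, with no call in either fit.

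Of the collagen prolyl hydroxylases, P4HA1 and P4HA2, both catalytic subunits, only P4HA2 was called against DMSO at a single time, and only with the replicate block. P4HA2 had 23.6 to 25.8 CPM in DMSO and 18.9 to 22.1 at 4 h, with no overlap. Its change at 4 h was -0.28 ± 0.086 (log2, SE) without the block, lower in 4 of 4 pairs (edgeR FDR 0.225), and -0.28 ± 0.063 with it (FDR 0.022). Without replicate 1 the blocked value was -0.28 and remained called (FDR 0.0369). At 24 h P4HA2 was at 25.2 ± 2.55 CPM. P4HA1 had 67.2, 65.0, 74.5 and 73.4 CPM in DMSO, 64.4, 57.8, 69.2 and 67.2 at 0.5 h, 64.6, 63.5, 63.2 and 74.6 at 1 h, then 69.6, 64.6, 70.2 and 71.5 at 2 h, 77.3, 69.7, 76.4 and 74.7 at 4 h, and 75.3, 76.4 and 77.8 at 24 h. Its 24 h libraries lay above all 4 in DMSO, and the difference of 0.13 on the log2 scale was not called in either fit.

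Secreted factors did not change by a called amount. VEGFA, the main blood vessel growth factor, had 29.7, 32.8, 28.7 and 31.5 CPM in DMSO, 33.5, 35.4, 27.7 and 31.1 at 0.5 h, 34.0, 31.5, 29.5 and 28.1 at 1 h, then 30.2, 33.1, 31.1 and 28.3 at 2 h, 31.1, 34.2, 29.4 and 28.8 at 4 h, and 35.0, 30.5 and 32.1 at 24 h. The groups overlapped at every time. Its fold changes were 0.00 to 0.08 with 95% intervals from -0.16 to 0.26 (log2). ADM, a vasodilator peptide, ranged from -0.07 to 0.16 with intervals from -0.36 to 0.47, and ANGPTL4, which inhibits lipoprotein lipase, from -0.06 to 0.01.

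**Figure D3:**
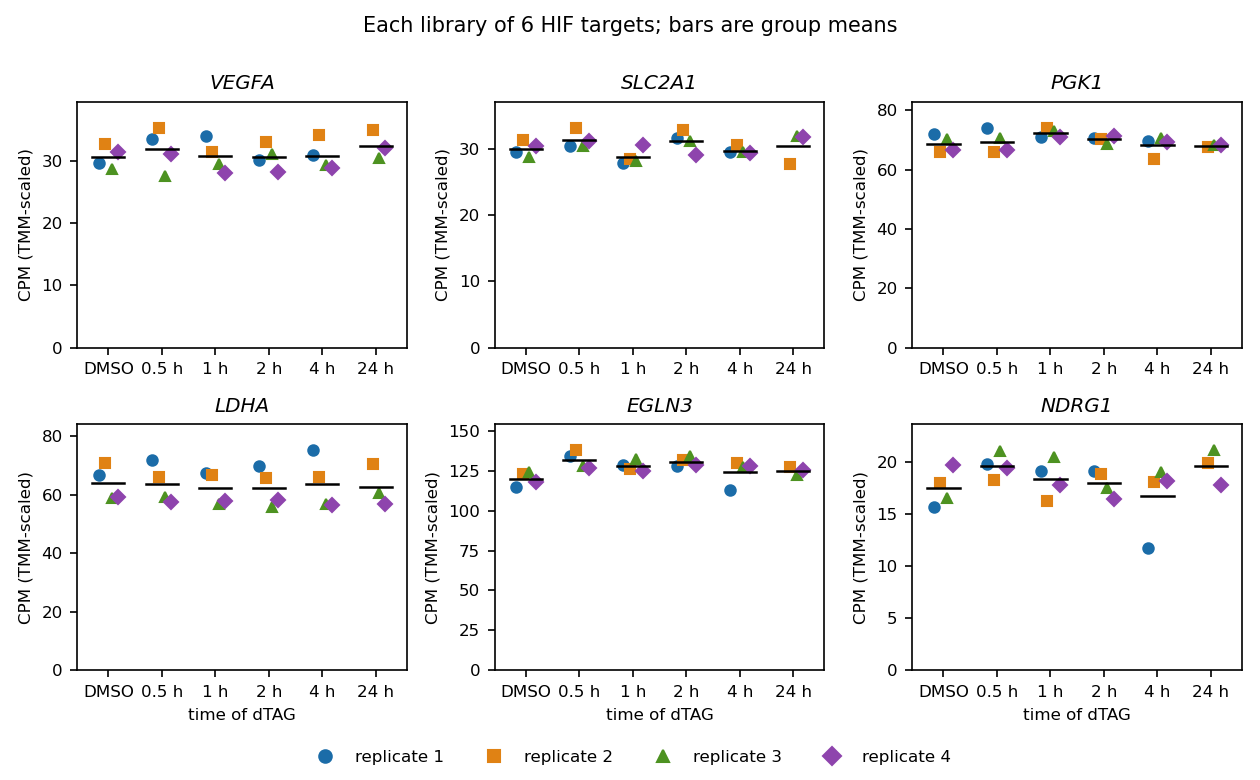
CPM (TMM-scaled, from 0) of 6 HIF targets in each of the 23 libraries by group; symbols and colours give the replicate number and bars the group mean. VEGFA stayed within 27.7 to 35.4 CPM and PGK1 within 63.5 to 74.1, LDHA splits by replicate number in every group, and the 4 h library of replicate 1 is the lowest for EGLN3 and NDRG1.

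The 4 mitochondrial genes were not called against DMSO in either fit. BNIP3 and BNIP3L are mitophagy receptors. BNIP3 had 20.8 ± 2.0 CPM in DMSO and 23.7 ± 2.2 at 24 h (0.19, log2), and BNIP3L changed by -0.10 to 0.05. FAM162A, a mitochondrial protein tied to cell death in hypoxia, changed by -0.06 to 0.07, and AK4, the adenylate kinase of the matrix, by -0.06 to 0.05.

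DDIT4, which restrains the growth kinase mTORC1 in hypoxia and other stress, gave the largest difference of the set. Its CPM in DMSO were 19.4, 22.1, 18.4 and 19.7 in replicates 1 to 4. They were 17.2, 20.3, 19.3 and 18.6 at 0.5 h and 16.1, 19.2, 19.4 and 15.7 at 1 h. They were 22.3, 23.7, 21.2 and 20.6 at 2 h, 20.7, 24.2, 22.0 and 23.2 at 4 h, and 27.7, 27.6 and 24.3 at 24 h in replicates 2, 3 and 4. The 24 h libraries were the 3 highest of all 23. The rise at 24 h was 0.42 ± 0.085 (log2, SE), higher in 3 of 3 pairs, with an edgeR FDR of 0.0189 (0.41 and 0.00105 with the block). The change at 4 h was 0.19 with an FDR of 0.565, and that at 1 h was -0.16; neither was called. The call was kept in 9 of 14 alternative fits. Without replicate 3 the 24 h estimate was 0.35 and the call was lost (FDR 0.582), as it was without replicate 4 (0.47, FDR 0.147) and with library totals in place of TMM factors (0.45, FDR 0.166). It was also lost without replicate 3 under the block (0.31, FDR 0.107) and in a fit of DMSO and 24 h alone (0.41, FDR 0.112). Its gene is short (chr10:72273919-72276036, plus strand), and the level in DMSO, 9.38 CPM per kilobase, was the second highest of the set.

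NDRG1, a stress-responsive HIF target, had 15.7, 18.0, 16.5 and 19.7 CPM in DMSO, 19.8, 18.2, 21.0 and 19.4 at 0.5 h, 19.1, 16.2, 20.4 and 17.7 at 1 h, then 19.1, 18.8, 17.5 and 16.4 at 2 h, 11.7, 18.1, 19.0 and 18.1 at 4 h, and 19.9, 21.1 and 17.7 at 24 h. All groups overlapped DMSO, and the intervals ran from -0.27 to 0.41 (log2). MXI1, a repressor related to MYC antagonists, changed by -0.15 to 0.15, and ERO1A, the oxidase that makes disulfide bonds in the endoplasmic reticulum, by -0.06 to 0.09; neither was called against DMSO.

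ANKRD37 and HILPDA kept the same sign over time, as did other genes of the set, among them HK2, KDM3A, EGLN3 and PGAM1. All times share the DMSO libraries, and the share of all genes with a steady sign is not given here. ANKRD37, a small ankyrin-repeat protein, had 12.1 to 14.3 CPM in DMSO and was above its DMSO partner in 19 of 19 pairs, which share the 4 DMSO libraries. Its fold changes were 0.20 to 0.30 (log2) and were not called without the block (lowest FDR 0.364), while with it those at 0.5 h (0.29 ± 0.08, FDR 0.08) and 2 h (0.28 ± 0.08, FDR 0.0914) were. HILPDA, which coats lipid droplets and holds back their breakdown, was above its partner in only 2 of 19 pairs, with fold changes of -0.26 to -0.08. It was called with the block at 1 h (-0.23 ± 0.066, FDR 0.081) and 4 h (-0.25 ± 0.064, FDR 0.0424) and not without it (FDR 0.332 and 0.263). Without replicate 1 the blocked 4 h value was -0.26 (FDR 0.0606). The short HILPDA gene lies wholly inside a long non-coding gene of the same strand with 1076 mean counts, against 223 for HILPDA, and the 2 cannot be separated in these counts.

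The late and early times of dTAG were also compared directly, without DMSO. At 24 h against 0.5 h 4 of 35 genes were called by edgeR, all higher at 24 h, where 1.99% of all genes were called and 1.2% were called higher; the 4 are 11.4% of the 35. Among genes with a mean count at least that of the lowest gene of the set the called share was 3.21%. DDIT4 differed by 0.49 ± 0.085 (log2, SE; FDR 0.00525), PFKFB4 by 0.28 ± 0.072 (FDR 0.0658), P4HA1 by 0.24 ± 0.066 (FDR 0.0842) and HK1 by 0.23 ± 0.057 (FDR 0.0461). In each of the 4 the groups did not overlap and the difference was positive in 3 of 3 pairs. With the replicate block 7 of 35 were called, again all higher, where 6.34% of all genes and 3.47% in this direction were called (10.1% of genes with such counts). The additional 3 were MXI1 (0.24 ± 0.066, FDR 0.0373), GPI (0.20 ± 0.062, FDR 0.0801) and BNIP3L (0.15 ± 0.043, FDR 0.0578), whose edgeR FDRs without the block were 0.13, 0.59 and 0.102.

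DDIT4 kept this call in 12 of 13 alternative fits and lost it without replicate 3 (0.47, FDR 0.22). HK1 kept it in 10 of 13, P4HA1 in 6 and PFKFB4 in 5, with estimates of 0.19 to 0.29, 0.18 to 0.28 and 0.21 to 0.35. Without replicate 3 and without the block 0 of the 35 were called, and without replicate 2 or 4 only DDIT4 was. In all 4 of these genes the 0.5 h mean lay below that of DMSO and the 24 h mean above it. DDIT4 was at 18.8, 19.9 and 26.5 CPM at 0.5 h, in DMSO and at 24 h, and PFKFB4 at 25.4, 29.0 and 30.9. HK1 was at 117 ± 6.0 CPM at 0.5 h, 133 ± 6.3 in DMSO and 138 ± 8.9 at 24 h, and P4HA1 was at 64.7 ± 5.0, 70.0 ± 4.6 and 76.5 ± 1.3 CPM. At 24 h against 4 h 0 of 35 genes were called (all genes 0.453%), 4 had an unadjusted p under 0.05, and with the block 2 were called (all genes 1.77%). These were P4HA2 (0.33 ± 0.065, FDR 0.00924) and GPI (0.25 ± 0.063, FDR 0.0561), both higher at 24 h, with edgeR FDRs of 0.197 and 0.592 without the block. Without replicate 1 the blocked values were 0.32 (FDR 0.0157) and 0.27 (FDR 0.0267).

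**Figure D4:**
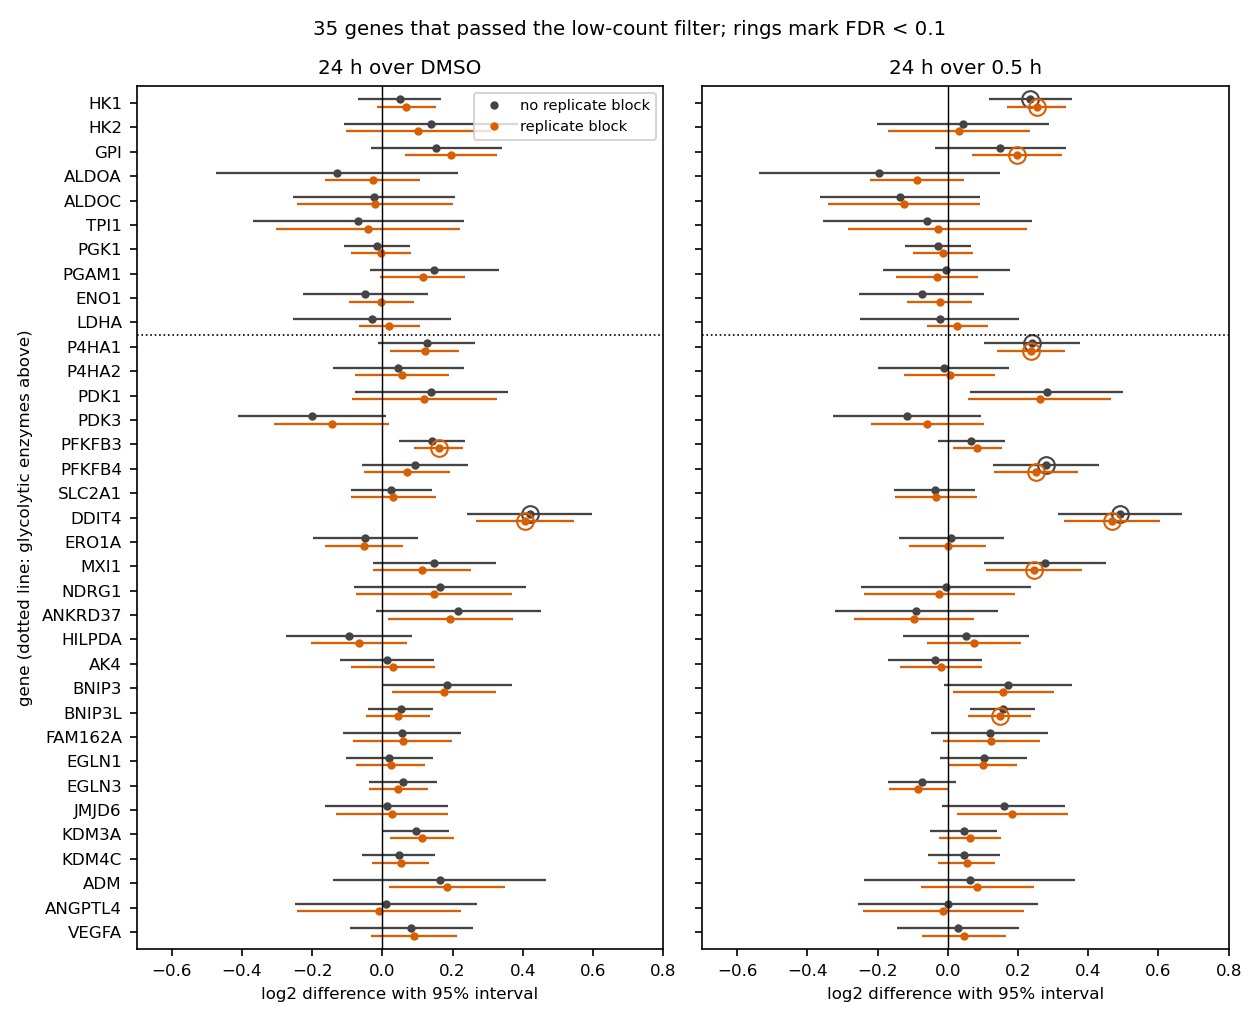
Log2 difference with its 95% interval for each of the 35 tested genes, 24 h over DMSO (left) and 24 h over 0.5 h (right), without (grey) and with (orange) the replicate block; rings mark FDR under 0.1. Most intervals include 0, DDIT4 lies clear of 0 in both panels (0.42 and 0.49 without the block), and the glycolytic enzymes above the dotted line scatter around 0, except HK1 on the right and, with the block, GPI in both panels (0.20 in each).

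Many genes of the set differed between harvests. In the fit with group and replicate number, 22 of 35 genes differed between replicate numbers by edgeR's F-test (62.9%), against 34.7% of all genes and 46.3% of the 14842 genes with a mean count at least that of the lowest gene of the set. The count was 13 of 35 without the low-count filter and 8 to 20 with a replicate left out, the lowest without replicate 2. Shares of all genes called in those fits are not given here, so these lower counts cannot be set against the table. Of the 22 genes, 7 were among the 10 glycolytic enzymes (LDHA, ALDOA, ENO1, PGAM1, GPI, HK1 and HK2) and 15 among the 25 other targets. LDHA had 66.9 to 75.2 CPM in the 5 libraries of replicate 1, 65.7 to 70.9 in the 6 of replicate 2, 55.7 to 60.6 in replicate 3 and 56.6 to 59.2 in replicate 4 (FDR 5.58e-07). ALDOA had 71.6 to 94.6, 63.7 to 69.3, 55.8 to 60.2 and 52.3 to 61.2 CPM in the same order (FDR 1.11e-06). Every ALDOA value of replicate 1, which has no 24 h library, thus lay above all those of the other replicates. ENO1 had 127 to 146, 122 to 135, 117 to 121 and 117 to 127 CPM (FDR 8.55e-05).

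Other targets differed in other ways. ADM was highest in replicate 2 (22.5 to 27.8 CPM) and lowest in replicate 4 (17.6 to 22.2), with an edgeR FDR of 0.000111, and VEGFA had 31.5 to 35.4 CPM in replicate 2 against 27.7 to 31.1 in replicate 3 (FDR 0.00647). PGAM1 was highest in replicate 2 (31.4 to 36.3 CPM) and lowest in replicate 1 (26.3 to 30.4; FDR 0.00265), whereas ALDOA was highest in replicate 1. The median deviation of the glycolytic enzymes from their group means was 0.05 (log2) in replicates 1 and 2, -0.09 in replicate 3 and -0.04 in replicate 4, where the median of all genes was -0.01 to 0.01. The harvests also differed in depth, with median totals of 7001408, 9173672, 13718242 and 12112166 counts, and the part of depth in these differences was not tested. PGK1, SLC2A1, PDK1, EGLN3, NDRG1 and KDM3A were not among the 22.

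**Figure D5:**
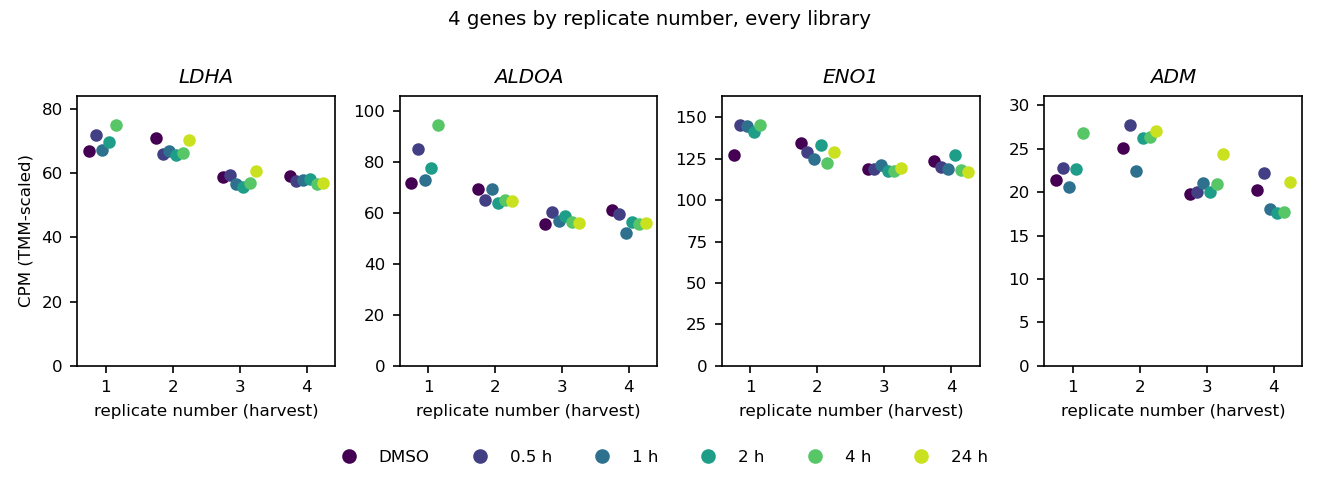
CPM (TMM-scaled, from 0) of LDHA, ALDOA, ENO1 and ADM in every library by replicate number, taken as the harvest. Colours give the group, and replicate 1 has no 24 h library. LDHA lies at 65.7 CPM or more in every library of replicates 1 and 2 and at 60.6 or less in every library of replicates 3 and 4, whatever the group.

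Genes around the set were read from 3 further lists. The shares of all genes called against DMSO at single times, 0.476% to 1.25% without the block and 2.43% to 3.25% with it, are the background here too. Of 18 genes of the HIF system, all were tested and 0 were called against DMSO at any time by edgeR without the block, HIF1A, EPAS1, ARNT and VHL included; at an unadjusted p under 0.05 there were 0 to 2 at each time. VHL, the ligase subunit that dTAG-V-1 recruits, was transcribed at 37.9 ± 1.93 CPM in DMSO and 36.7 ± 3.89 at 24 h, and its fold changes against DMSO were -0.05 to 0.02 (log2). With the block CITED2, which competes with HIF for its coactivators, was called lower at 1, 2 and 4 h (-0.18, -0.17 and -0.19; FDR 0.0705, 0.0872 and 0.0534, against 0.584, 0.768 and 0.571 without the block). At 4 h without replicate 1 its blocked value was -0.18 (FDR 0.0656). With the block, ARNT (FDR 0.0816) and CITED2 (FDR 0.0533) were also called over all time points together, where 9.01% of all genes were. ARNT was called at no single time against DMSO in either fit. At 24 h against 0.5 h it was called higher with the block (0.17 ± 0.048, FDR 0.0474), where 6.34% of all genes were called. Of 17 other glycolysis genes 15 were tested and 0 were called against DMSO in either fit at a single time, with 1 to 3 a time at an unadjusted p under 0.05. Of 18 other reported HIF targets 17 were tested, and CA12 alone was called against DMSO without the block. At 24 h against 0.5 h KDM5B was called higher without the block (0.18 ± 0.046, FDR 0.0644), where 1.99% of all genes were called.

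CA12, a membrane carbonic anhydrase like CA9 but abundant in luminal breast cells, fell from 246 CPM in DMSO to 192 at 0.5 h (-0.35 ± 0.054, log2, SE; edgeR FDR 0.00277), 179 at 1 h (-0.46 ± 0.054, FDR 0.000243) and 207 at 2 h (-0.25 ± 0.054, FDR 0.0366). It was lower in 4 of 4 pairs at each of these times. With the block it was also called lower at 24 h (-0.20 ± 0.034, FDR 0.00189; without it FDR 0.115). Of the other genes of that list, the block alone made calls against DMSO for STC2 (higher by 0.13, 0.10 and 0.10 at 0.5, 2 and 4 h), KDM5B (lower by 0.17 at 0.5 h) and PPP1R3C (higher by 0.44 at 24 h, 20.5 against 15.1 CPM). Without the block the edgeR FDRs were 0.134, 0.329 and 0.319 for STC2, 0.133 for KDM5B and 0.106 for PPP1R3C. Without replicate 1 the blocked 4 h value of STC2 was 0.07 and no longer called (FDR 0.274). None of the 35 genes tested fell by as much against DMSO at any of the 5 times as CA12 did at 1 h.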

How the data were processed

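Nascent transcription was measured by PRO-seq in 23 libraries of 1 T47D clone with degron-tagged TRPS1. Per the study's methods and the submitters' processing notes, the authors trimmed adapters with cutadapt 1.8.1, collapsed duplicates by the molecular identifier of the adapter, removed reads of ribosomal DNA, aligned to hg38 with Bowtie2 2.4.4, sorted with SAMtools 1.9 and assigned reads to genes with bedtools. The deposited values are raw counts per gene, whole numbers with no normalization. Annotation and strand setting are not given in the sources used here. Of genes lying inside another gene, 5 of 534 on the same strand (0.936%) and 173 of 850 on the opposite strand (20.4%) had more counts than the gene around them, so reads of opposite strands were counted apart and reads of overlapping same-strand genes were counted for each. Of the 38 genes 31 overlap another gene, 21 of them on the same strand. Total counts of 4408544 to 17571616 set the precision.

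Groups and replicate numbers came from the sample titles, and the replicate 1 library at 24 h was not analysed here. Counts were fitted in R 4.3.3 with edgeR 4.0.16 (filterByExpr with a minimum count of 10 and a minimum total of 15, TMM factors of 0.858 to 1.05, glmQLFit and glmQLFTest, two-sided) over all 23 libraries and the 26057 genes kept, which held 99.5% to 99.6% of each library. P-values were adjusted by Benjamini-Hochberg over all genes kept, and FDR under 0.1, the threshold of the study, made a call. CPM are TMM-scaled, intervals are 95% from the fit, and pairs compare libraries of the same replicate number. The scripts were tested on simulated data. Identifiers matched GENCODE v44 for 60463 of 60605 genes, and promoter sequences are from RefSeq.

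Alternatives were DESeq2 1.42.0, RLE factors, library totals alone, no low-count filter, each replicate left out, fits of DMSO with 1 time point, and the replicate block. The pairing uses the replicate numbers of the sample titles, which do not name harvests. Each number was taken as 1 harvest because the study's methods describe replicates collected at different times of a day. Deviations from the group means correlated across genes at a mean of 0.341 between libraries of the same number (55 pairs) and -0.096 between different numbers (165 pairs). By number the means were uneven, at 0.642, 0.134, 0.492 and 0.196 in replicates 1 to 4, with a minimum of -0.038 in replicate 2. Centring on means of 3 or 4 libraries itself pulls the value between different numbers below 0. The common dispersion was 0.0249 without and 0.00489 with the block. Subtracting nested genes, and leaving out replicates under the block, were added after seeing the data. The genes and lists were chosen with earlier results of these data known. By rule, values in every library are printed for CA9, VEGFA, SLC2A1, PDK1, EGLN3, NDRG1, HK2, PGK1, LDHA and the called genes with the smallest p over all time points, up to 12 genes; those of P4HA1 and KDM3A were added after their values were seen. The other called genes are given by ranges.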

Additional observations from a re-analysis of the deposited data

Results flagged for a closer look

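In 5 of the 70 gene-by-group sets of 4 libraries that were examined for the 14 genes tested in this way, 1 library lay far from the others by Dixon's test at the 95% level; chance gives about 1 in 20. The 4 h library of replicate 1, which has the lowest total and the highest mitochondrial share, was the lowest of its group for EGLN3 (112.9 CPM) and for NDRG1 (11.7 CPM). The 4 h library of replicate 2 was the highest of its group for SLC2A1 (30.5 CPM), although the 4 libraries lay within 29.3 to 30.5 CPM. The DMSO library of replicate 1 was the highest of its group for KDM3A (46.8 CPM), and the 1 h library of replicate 4 was the highest of its group for P4HA1 (74.6 CPM).

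For 4 genes the effect of dTAG differed between 24 h and 0.5 h by edgeR's test of the difference itself, with FDR under 0.1. The log2 differences were 0.49 for DDIT4, 0.28 for PFKFB4, 0.24 for P4HA1 and 0.23 for HK1, each higher at 24 h in 3 of 3 pairs.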

How the results depend on the processing

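Nearly all counts of called genes here are small enough that 1 gene moves them past 1.5 times, and no called fold change reversed its sign under an alternative run. With the replicate block the counts were 3 at 0.5 h (without it 0), 3 at 1 h (1), then 1 at 2 h (0), 2 at 4 h (0), 2 at 24 h (1), 9 over all time points (2), 2 at 24 h against 4 h (0) and 7 at 24 h against 0.5 h (4). DESeq2 gave 1 at 0.5 h, 0 at 1 h, 2 at 24 h and 5 over all time points. Library totals in place of TMM factors gave 0 at 1 h, 0 at 24 h and 2 at 24 h against 0.5 h. Without the low-count filter the counts were 0 at 1 h, 2 at 24 h against 0.5 h and 13 between replicate numbers (22 with it). Fits of DMSO with 1 time point, which hold fewer libraries, gave 0 at 1 h and 0 at 24 h. Apart from the replicate block, shares of all genes called are not given for the alternatives of this section. Their counts therefore cannot be set against a background.

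With each replicate left out in turn, the counts without the block and then with it ran from 0 to 0 and 0 to 2 at 0.5 h, 0 to 1 and 0 to 3 at 1 h, then 0 to 0 and 0 to 0 at 2 h, 0 to 0 and 0 to 2 at 4 h, 0 to 1 and 0 to 2 at 24 h, 0 to 3 and 3 to 10 over all time points, 0 to 0 and 0 to 3 at 24 h against 4 h, and 0 to 2 and 2 to 8 at 24 h against 0.5 h. Between replicate numbers they ran from 8 to 20, the lowest without replicate 2. Each such fit has fewer libraries; the cause of the other changes was not tested. CA9, SLC2A3 and LOX are limited by depth.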
